A study of Nasonia vitripennis with 2 samples.

Results

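In the genome of the parasitoid wasp Nasonia vitripennis, most methylated CpG sites (mCpGs) lie in long runs, and 235 small groups of 2 or 3 mCpGs stood alone, with no other mCpG within 1000 bp of either end. They held 533 of the 116929 mCpGs, or 0.456%, whereas chains of 4 or more held 89.7%. Their methylation percentage was 37.3% over all reads, between the 21.9% of mCpGs that stood alone and the 62.3% of isolated chains of 4 or more. The small groups lay in CpG-poor sequence, and 61.3% of them had a longer chain within 5000 bp. The data came from 1 pool of 50 females, collected as adults of 24 h, from the strain AsymCX, which the methods describe as cured of Wolbachia. The DNA of whole bodies was converted with bisulfite and read in 2 lanes, 1 of a HiSeq2000 and 1 of a Genome Analyzer IIx, whose reads are summed in the table of counts. The pool was not replicated and there was 1 condition, so no value below has an error between animals or libraries, and cell types of the body are averaged.

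Bisulfite turns unmethylated cytosines into uracil, which is read as T, whereas methylated cytosines are still read as C. In insects CpG methylation is known mainly from the bodies of transcribed genes, above all their exons, and most of the genome is not methylated. Methylated cytosines mutate to T more often than unmethylated ones, so sequence that has long been methylated in the germ line tends to lose CpGs. Small groups are of interest beside these gene-body runs because they hold methylation at only a few sites with little around them. A genome or gene annotation of the build behind the table was not used here, so the groups are named by scaffold and position as in the table, and whether they lie in exons, introns or between genes was not analysed.

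The members were chosen from the reads of the same table. A CpG was covered if it had 10 reads or more, and was an mCpG if more than 10% of those reads were methylated. mCpGs of a scaffold that followed each other at 500 bp or less were joined into a chain, which ended at 3 covered CpGs in a row that were not mCpGs. The 7818889 covered CpGs of 14024488 sites gave 15644 chains, of which 6626 held 1 mCpG, 1588 held 2, 755 held 3 and 6675 held 4 or more. Of the 2343 chains of 2 or 3, 1789 had 15 or more reads at each mCpG, 330 had no other mCpG within 1000 bp, and the 235 that met both rules are described here. They comprised 172 groups of 2 and 63 groups of 3. The table held 226856322 counts, with a median of 11 reads over all sites, 19 over covered CpGs and 29 over mCpGs. The 2 sets used for comparison met the same rules of reads and distance. They were 1731 single isolated mCpGs and 392 isolated chains of 4 or more. Intervals in the text are 95% Wilson intervals for shares and exact binomial intervals for medians. They cover counting error only, since reads were amplified by PCR without molecular identifiers.

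The methylation percentage of the small groups spread over nearly the whole range that the rule allowed. Because the rule used these values, they are given as a description without a test. Over the 533 mCpGs, 8257 of 22124 reads were methylated (37.3%, 36.7 to 38.0). The group in the middle had 31.2% (26.1 to 33.8), the quartiles were 18.7% and 49.2%, the lowest group had 10.7% and the highest 98.5%. Of the 235 groups, 95 had up to 25%, 82 had above 25% and up to 50%, 42 had above 50% and up to 75%, and 16 had more than 75%. The median was 12.5% (12.5 to 12.7) for single mCpGs and 65.2% (63.5 to 66.8) for isolated chains of 4 or more. Single mCpGs above 75% made up 2.02% of their set (35 of 1731), against 6.81% of the small groups (16 of 235) and 16.6% of the longer chains (65 of 392).

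Within the small groups the level was likewise higher in the larger ones. Groups of 2 had 34.5% methylated reads (33.8 to 35.3) and a median of 26.4%, and groups of 3 had 42.8% (41.7 to 43.9) and a median of 40.5%. More than 50% methylated reads were found in 25 of 63 groups of 3 and in 33 of 172 groups of 2. The place within a group of 3 made little difference. The first mCpG had 43.1% (41.1 to 45.1), the middle one 42.1% (40.2 to 44.1) and the last 43.2% (41.3 to 45.1), with intervals that overlap. The middle mCpG was above both ends in 20 groups, below both in 18, and between them or tied in 25.

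**Figure D1:**
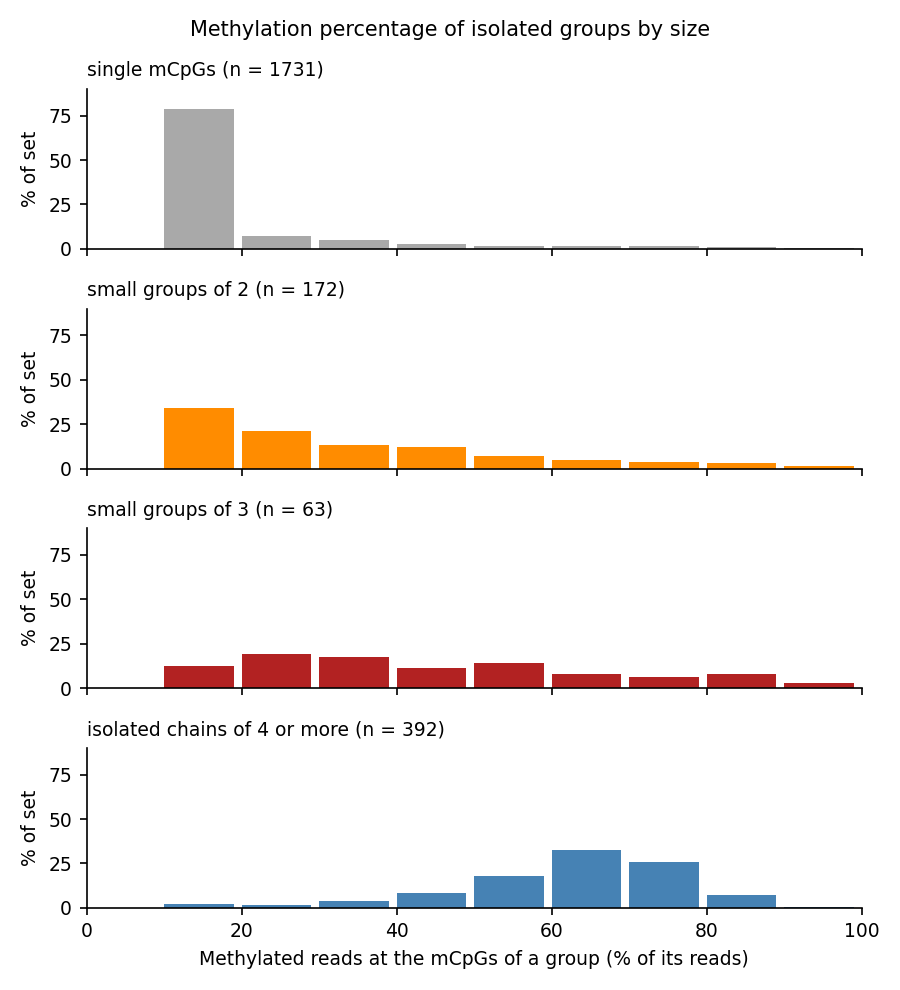
Histograms of the methylation percentage of isolated groups, with the share of methylated reads at the mCpGs of a group on the x axis and the percentage of the set in each bin of 10 percentage points on the y axis. Single mCpGs (n = 1731) pile up just above the 10% threshold, groups of 2 (n = 172) and of 3 (n = 63) spread over the range, and chains of 4 or more (n = 392) have their mode between 60% and 70%.

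In the 4 most methylated groups of 3, the share of methylated reads at single sites went from 79.5% to 97.9%. On SCAFFOLD7:1546459-1546660, the group with the highest percentage among those of 3, the mCpGs had 37 of 38, 46 of 47 and 55 of 64 methylated reads (92.6%, 87.3 to 95.8). Its nearest other mCpG was 3243 bp away and its nearest longer chain 3602 bp away, although 42 covered CpGs on the left and 15 on the right lay within 1000 bp. On SCAFFOLD34:1197625-1197908 the counts were 29 of 32, 21 of 22 and 20 of 22 (92.1%), and the longer chain was 1260 bp away. On SCAFFOLD2:3391252-3391303 they were 26 of 30, 18 of 21 and 19 of 23 (85.1%), within 51 bp. On SCAFFOLD3:822641-823174 they were 31 of 39, 20 of 24 and 25 of 27 (84.4%), spread over 533 bp in sequence with only 4 CpG sites per 1000 bp. In these groups the neighbours did not pass the test of a difference described below.

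The 2 groups of 2 with the highest percentage, named after their values were seen, were less well bounded. On SCAFFOLD1095:3533-3535, 34 of 34 and 33 of 34 reads were methylated (98.5%, 92.1 to 99.7), but no CpG within 1000 bp was covered on either side. This held the 1 member mCpG with 100%. On SCAFFOLD4623:477-620, 28 of 29 and 63 of 66 reads were methylated, and no CpG was covered on the right side.

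At the other end, the least methylated groups of 3 rested on a few methylated reads per site. On SCAFFOLD1452:3981-3990, a group within 9 bp, each mCpG had 3 methylated reads, of 26, 27 and 26. On SCAFFOLD307:136315-136367 each had 2, of 16, 17 and 19. On SCAFFOLD446:135380-135624 the counts were 3 of 23, 5 of 39 and 3 of 28, and on SCAFFOLD1:7287964-7288023 they were 2 of 18, 2 of 15 and 2 of 15. Their pooled percentages lay between 11.4% and 12.5%, with lower interval bounds from 5.40% to 6.96%, so that at this depth they cannot be told from sites below the threshold. The last lay in CpG-dense sequence with 99 CpG sites per 1000 bp.

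Many member mCpGs sat close to the threshold. Of the 533, 70 had 12% or less, 48 were called on 2 methylated reads, and the lowest had 10.2%. The lower bound of the Wilson interval was above 10% for 341 of 533 member mCpGs (64.0%, 59.8 to 67.9), against 89.8% of all mCpGs with 15 or more reads and 22.2% of single isolated mCpGs. The rule used the same reads, so nothing is read from these shares beyond how firmly the sites were called. In 105 groups every mCpG had its lower bound above 10%, and in 49 groups none had. The 105 groups had a pooled percentage of 49.1%, a median of 23 CpG sites per 1000 bp, and 68.6% of them within 5000 bp of a longer chain (chosen after seeing the data). At the edges of the rule, 14 isolated chains whose lowest mCpG had 14 reads were left out, with 28.7% methylated reads, and 15 whose lowest had 15 reads were kept, with 22.0%. The 21 chains whose nearest other mCpG lay above 900 and up to 1000 bp away had 51.7%, and the 10 groups with it above 1000 and up to 1100 bp had 33.1%. In 56 groups a covered CpG within 1000 bp had above 8% and up to 10% methylated reads and so lay just under the threshold.

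Most groups were short. The median span from the first to the last mCpG was 43 bp (35 to 57), with quartiles of 20.5 and 140 bp and a range of 2 to 776 bp, where the rule allowed up to 500 bp between neighbours. Groups of 2 had a median span of 31 bp and groups of 3 of 172 bp. In 147 groups the mCpGs lay within 75 bp, the length to which reads had been trimmed, so that single reads could cover the whole group. The 88 wider groups had 43.5% methylated reads (42.6 to 44.5) and a median of 41.7% (35.8 to 47.7), and the 147 short ones had 32.4% (31.6 to 33.3) and a median of 24.4% (20.9 to 28.3). Size and span went together, since 42 of the 88 wider groups and 21 of the 147 short ones held 3 mCpGs. Among groups of 3 alone the medians were 44.1% (36.5 to 53.3) for wider and 30.7% (20.3 to 54.8) for short groups, with intervals that overlap.

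Of the 3 groups wider than 500 bp, that of SCAFFOLD3 above was methylated throughout and the other two were graded. On SCAFFOLD184:141098-141874, the widest group with 776 bp, 22 of 24, 27 of 28 and 16 of 38 reads were methylated. Its first 2 sites were thus high (91.7% and 96.4%) and the last was lower (42.1%). No CpG within 1000 bp on its left was covered. On SCAFFOLD5:3307018-3307675 the counts were 6 of 43, 27 of 57 and 21 of 25, so that the percentage went from 14.0% to 47.4% and 84.0% along 657 bp. The fourth in span, SCAFFOLD16:3460058-3460539, had 10 of 21, 9 of 22 and 26 of 68, with 3 similar percentages.

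Neighbouring mCpGs of the small groups were mostly close. The 298 neighbouring pairs of the small groups had a median distance of 36 bp (28 to 44), with 53.4% of them at 40 bp or less. Above 80 and up to 120 bp there were 26 pairs (8.72%, 6.02 to 12.5). Above 120 and up to 160 bp there were 14 pairs (4.70%, 2.82 to 7.73), above 160 and up to 200 bp 30 pairs (10.1%, 7.14 to 14.0) and above 200 and up to 240 bp 10 pairs (3.36%, 1.83 to 6.07). The counts thus did not fall evenly, but the interval of the bin up to 200 bp overlaps with those of both bins before it, and a wider bin above 100 and up to 160 bp held 27 pairs (9.06%, 6.30 to 12.9). In chains of 4 or more the shares from above 120 to 240 bp were 7.57%, 4.83% and 2.79% of 98187 pairs. Neighbouring covered CpGs of 15 or more reads beside the small groups gave 2.30%, 1.40% and 0.966% of 8901 pairs. The bins were chosen after the distances had been seen and no test was made.

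**Figure D2:**
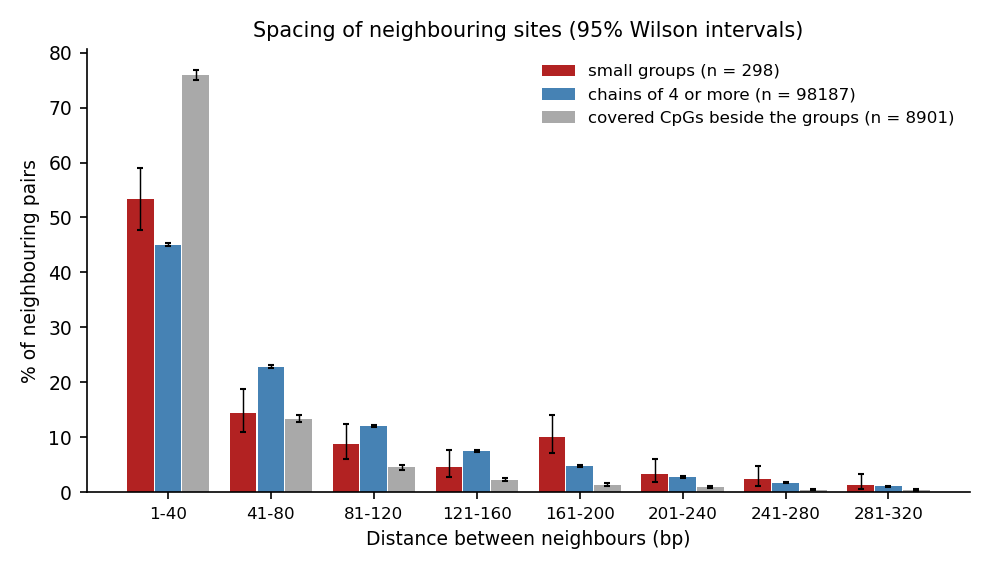
Distance between neighbouring sites in bins of 40 bp (x axis) against the percentage of neighbouring pairs (y axis), with 95% Wilson intervals, for the small groups (n = 298), chains of 4 or more (n = 98187) and covered CpGs beside the small groups (n = 8901); distances above 320 bp are not drawn. In the small groups the bin above 160 and up to 200 bp (10.1%) is higher than the bin before it (4.70%), with intervals that overlap, and in the chains and the flanking CpGs it is lower.

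At the short end, 8 of the 298 pairs (2.68%, 1.37 to 5.21) were 2 bp apart, as in the bases CGCG, against 1.20% (976 of 81279) over all chains. In the 7 groups of 2 with this spacing no pair passed the test of a difference. The largest difference, 7.94 percentage points, was that of SCAFFOLD39:268695-268697 with 4 of 21 and 2 of 18. On SCAFFOLD10:626310-626312 they were 10 of 60 and 11 of 66, on SCAFFOLD15:55532-55534 they were 21 of 98 and 23 of 101, and on SCAFFOLD98:404142-404144 they were 11 of 101 and 11 of 100. Such sites are covered by nearly the same reads, so that they are not independent measurements of one methylation level. Of the 7, 6 had 10.9% to 22.1% and the group of SCAFFOLD1095 had 98.5%.

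Neighbouring mCpGs of a small group differed from each other in 74 of 298 pairs (24.8%, 20.3 to 30.04) by two-sided Fisher's exact test with Benjamini-Hochberg adjustment over 81279 pairs of all chains, against a background of 32.2% over all those pairs. The test used the reads that had also chosen the members, so the shares are set side by side and nothing is read from their difference. The share moved both ways with the rule. It was 33.6% with a coverage minimum of 20 reads, 31.1% with no other mCpG within 500 bp and 28.6% with 30 or more reads at each mCpG. It was 19.6% with no other mCpG within 2000 bp, 22.9% with a threshold above 20% and 22.8% with a gap of at most 200 bp. Unadjusted p was up to 0.05 in 95 pairs. The 74 pairs lay in 66 groups. Of the 202 pairs within 75 bp, 42 differed (20.8%, 15.8 to 26.9), and of the 96 pairs further apart 32 differed (33.3%, 24.7 to 43.2), against 28.1% and 40.1% in all chains. The median difference was 9.72 percentage points (6.54 to 12.3) within 75 bp and 14.4 (10.1 to 22.8) beyond, against 13.9 and 20.1 in all chains. The test treats the reads of both sites as independent, which does not hold where 1 read covers both, as can be within 75 bp.

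The levels of neighbours were compared across pairs. Across the 202 pairs within 75 bp the percentages had a Pearson correlation of 0.578 and a Spearman correlation of 0.551, and across the 96 wider pairs 0.302 and 0.247. In all chains the Pearson values were 0.398 and 0.142. The pairs share a pool, a library and often reads, and the rule bounds every value at 10%, so that these are descriptions. In 66 of the 202 close pairs (32.7%) and 12 of the 96 wider pairs (12.5%) the number of methylated reads at both sites differed by at most 1. Since 48 of the member mCpGs had only 2 methylated reads, close counts are in part set by the rule.

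**Figure D3:**
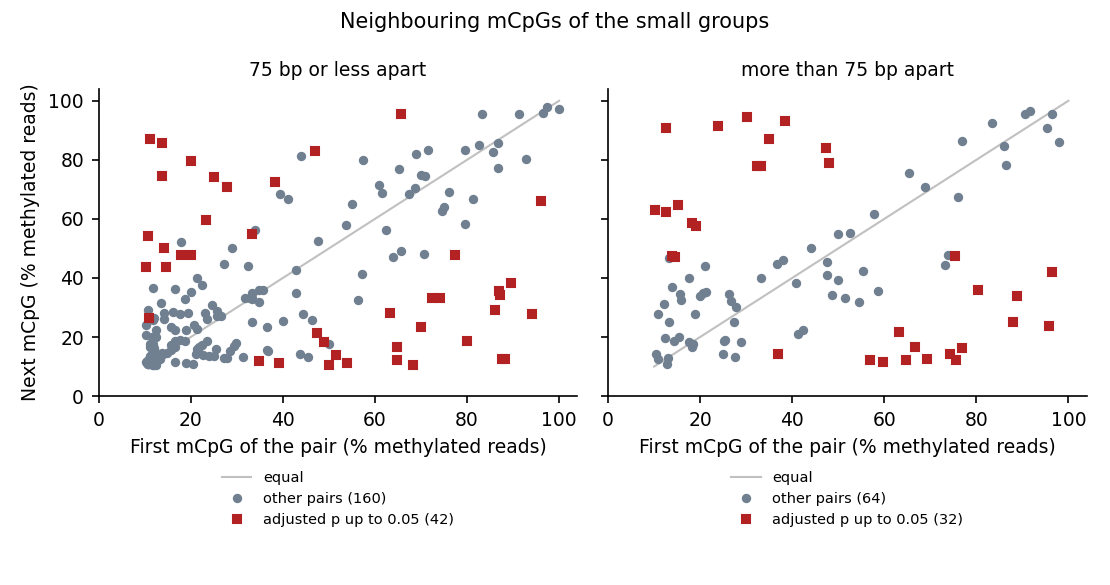
Methylation percentage of each mCpG (x axis) against that of the next mCpG of its group (y axis), for the 202 pairs within 75 bp and the 96 pairs further apart; squares mark the 42 and 32 pairs that differed by Fisher's exact test at an adjusted p up to 0.05, and the line marks equal percentages. Points crowd at low percentages of both sites, and the pairs that differed lie far from the line on both sides of it.

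In the 4 groups with the largest difference past the test, that difference lay between sites 9 to 181 bp apart. On SCAFFOLD1:8824261-8824445, sites only 3 bp apart had 14 of 16 and 2 of 16 methylated reads and also passed the test (adjusted p = 0.000339, Fisher's exact test). The third site, 181 bp on, had 40 of 44. The larger difference, of 78.4 percentage points, was that of the middle and the last site (adjusted p = 3.20e-07, Fisher's exact test). On SCAFFOLD8:2150796-2150864 the counts were 3 of 27, 41 of 47 and 22 of 64, with the middle site high by 76.1 points over the first, 56 bp away (adjusted p = 2.32e-09, Fisher's exact test). On SCAFFOLD126:6050-6059, 15 of 17 and 2 of 16 reads were methylated 9 bp apart (75.7 points, adjusted p = 0.000128, Fisher's exact test). This group had no covered CpG on its right side and 4 called CpGs of fewer than 10 reads in its flanks. On SCAFFOLD2665:256-353 the counts were 28 of 29, 23 of 24 and 5 of 21, and the last differed from the middle site by 72.0 points (adjusted p = 8.68e-06, Fisher's exact test).

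Between the mCpGs of a group there was often nothing else to read. In 157 groups no covered CpG lay between them, in 48 groups 1, in 25 groups 2, in 4 groups 3 and in 1 group 4. This last, SCAFFOLD37:1288063-1288389, had 17 of 23, 20 of 42 and 10 of 22 methylated reads around 4 covered CpGs that were not mCpGs. The 114 CpGs between mCpGs had 1.77% methylated reads (1.44 to 2.17, 90 of 5095). The covered CpGs in the 1000 bp on either side had 0.417% (0.397 to 0.438).

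CpGs with 5 to 9 reads had not entered the rule, and they give the methylation inside and around the groups at sites that did not choose them. A thinly read CpG was called if it had 2 or more methylated reads, which 0.330% of the 3317888 such sites in the table had. Inside the small groups 3 of 9 were called (33.3%, 12.1 to 64.6), with 14 of 64 reads methylated (21.9%, 13.5 to 33.4). Both values are above the background, but the 9 sites came from 4 groups and 5 of them from a single one. In SCAFFOLD34:1197625-1197908, the group with 92.1%, the 2 thinly read sites had 4 of 5 and 5 of 6 methylated reads. In SCAFFOLD14:444242-444617, where the mCpGs had 10 of 19, 31 of 56 and 14 of 33, 1 site had 3 of 9 and the other 4 sites had none of 7, 8, 8 and 7. In SCAFFOLD1:6381870-6382092, with 35 of 46 and 31 of 46 at its mCpGs, the site had 1 of 8, and in SCAFFOLD7:2190902-2191077, with 12 of 22 and 7 of 22, it had 1 of 6. Inside isolated chains of 4 or more, 136 of 161 thinly read sites were called (84.5%, 78.1 to 89.3).

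In the flanks of the small groups 29 of 3404 thinly read CpGs were called (0.852%, 0.594 to 1.22), against 0.181% (0.144 to 0.227) beside single mCpGs and 1.60% (1.33 to 1.94) beside isolated chains of 4 or more. These 29 sites lay beside 20 groups. Another limit of the isolation was that 20 groups had no covered CpG within 1000 bp on at least one side. In all, 33 groups had one or the other. The 202 groups with neither had a median methylation of 30.03% (25.6 to 33.0) and a median of 29 CpG sites per 1000 bp (26 to 32), and 126 of them had a longer chain within 5000 bp. The 20 groups that were open on one side had a median of 53.2% and of 10.5 CpG sites per 1000 bp.

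Covered CpGs next to the groups carried low but raised methylation. Within 50 bp of the ends, 1.07% of the reads were methylated (0.901 to 1.27), from 50 to 100 bp 0.722%, from 100 to 250 bp 0.568%, from 250 to 500 bp 0.377% and from 500 to 1000 bp 0.327% (0.303 to 0.353). Every bin was above the 0.127% of covered CpGs that had no mCpG within 1000 bp. Beside single mCpGs the values were 0.511% (0.476 to 0.549) within 50 bp and 0.221% (0.214 to 0.228) from 500 to 1000 bp, and beside isolated chains of 4 or more they were 1.95% (1.72 to 2.22) and 0.301% (0.282 to 0.321). In the nearest 3 bins the small groups lay between both sets with intervals that did not overlap. In the farthest bin they were above single mCpGs and overlapped with the chains. These intervals are of reads pooled over groups and leave out the spread between groups, so the order of the sets was not tested. The rule set each of these CpGs at 10% or less, so the values say how much methylation lay under that bound. Flanking CpGs with 2 or more methylated reads made up 1.99% (1.76 to 2.26) beside the small groups, 0.788% beside single mCpGs and 0.145% away from mCpGs.

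**Figure D4:**
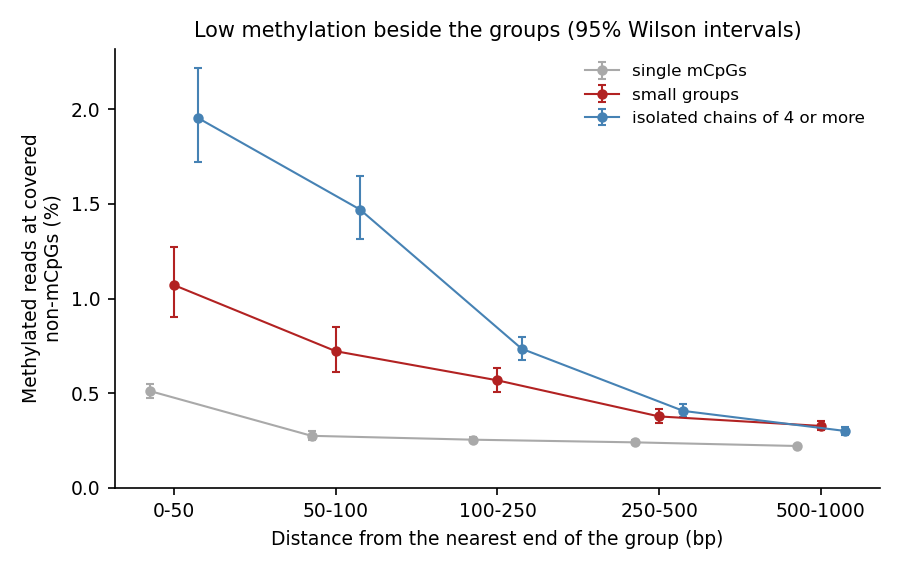
Methylated reads at covered CpGs that are not mCpGs (y axis, percent, with 95% Wilson intervals) by distance from the nearest end of the group (x axis, bp), around single mCpGs, small groups and isolated chains of 4 or more. The small groups fall from 1.07% within 50 bp to 0.327% at 500 to 1000 bp and lie between the other sets over the first 250 bp.

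The small groups lay in CpG-poor sequence. The 1000 bp around the middle of a group held a median of 28 CpG sites (25 to 31, range 2 to 107), against 73 for all covered CpGs and 71 for covered CpGs of 15 or more reads away from mCpGs. Single mCpGs had a median of 46 (44 to 48) and isolated chains of 4 or more of 13 (13 to 14). Groups of 2 had 29.5 (26 to 32) and groups of 3 had 23 (18 to 27). CpG positions come from the reference and not from the reads, but a region with few CpGs also meets the rule of distance more easily, and that part was not tested. Near a scaffold end the 1000 bp are cut short, which lowers the density and also leaves less sequence to the rule of distance. An example is SCAFFOLD2665:256-353 with 5 CpG sites. On scaffolds beyond 100 kbp the median was 29 (26 to 32).

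Groups in CpG-poorer sequence were more methylated. The 70 groups with up to 20 CpG sites per 1000 bp had a median of 42.3% (35.4 to 53.3), the 105 groups with 21 to 40 had 27.0% (22.9 to 33.3), and the 60 groups with more than 40 had 19.9% (15.7 to 25.3). More than 50% methylated reads were found in 29 of the 70, 22 of the 105 and 7 of the 60 groups. The tiers also differed in depth, with medians of 36.5 (31.0 to 41.7), 40.5 (34.5 to 48.5) and 25.5 (20.5 to 39.5) reads per mCpG. The 19 groups above 60 CpG sites per 1000 bp had medians of 17.5 reads per mCpG and 12.5% methylated reads, near the threshold. The tiers differed in size and span too. Groups of 3 numbered 26 of the 70, 25 of the 105 and 12 of the 60, and median spans were 100.5, 43 and 28.5 bp. How far depth, size, span and the threshold entered these differences was not tested. Across the 235 groups the Spearman correlation of CpG density and methylation percentage was -0.43. The groups share a pool and a library, and the methylation percentage had been used by the rule. The 31 groups with up to 12.5% methylated reads had a median of 46 CpG sites per 1000 bp (32 to 74) and a median of 20.5 reads per mCpG, and the 16 groups above 75% had 13 (7 to 30) and 32.0 reads.

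**Figure D5:**
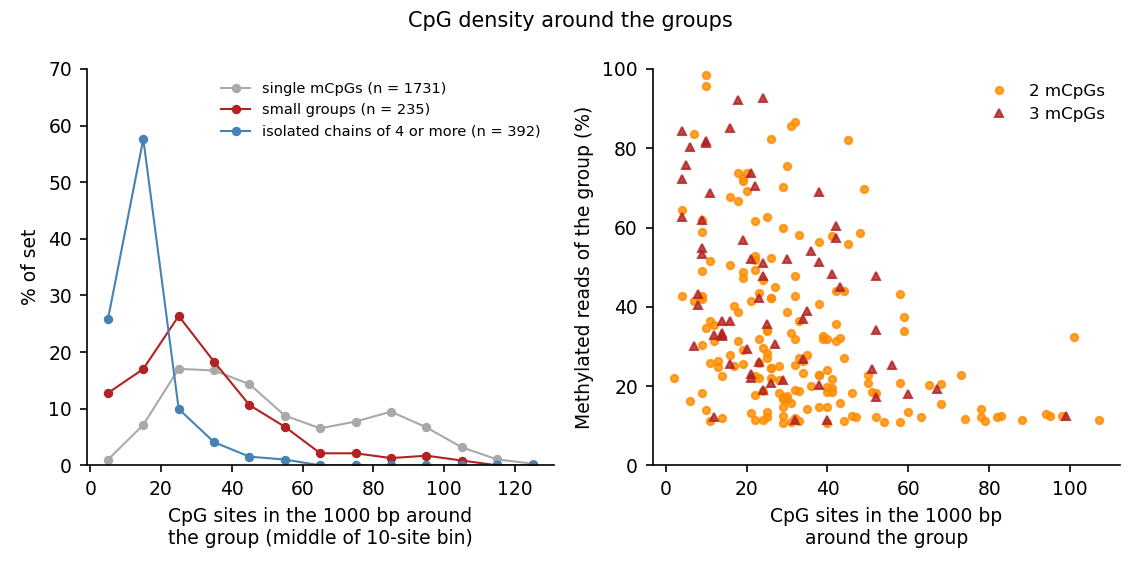
Left, CpG density as sites in the surrounding 1000 bp (x axis, middle of bins of 10 sites) against the percentage of the set (y axis) for single mCpGs, small groups and isolated chains of 4 or more; right, the same density (x axis) against the methylation percentage of each of the 235 small groups (y axis), by number of mCpGs. The small groups lie between the other sets in density, and none of the 19 groups above 60 CpG sites per 1000 bp has more than 40% methylated reads. These 19 groups had a median of 17.5 reads per mCpG.

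Many small groups lay near longer runs of methylation, beyond the 1000 bp that the rule kept free. A chain of 4 or more mCpGs was found within 5000 bp of 144 of 235 groups (61.3%, 54.9 to 67.3), of 579 of 1731 single mCpGs (33.4%, 31.3 to 35.7) and of 7.71% of the covered CpGs that had no mCpG within 1000 bp. The median distance was 2986 bp (2570 to 3602) over 212 groups, against 9788 bp for single mCpGs and 40751 bp for the covered CpGs away from mCpGs. The other 23 groups had no longer chain on their scaffold. Of the covered CpGs at 1000 to 2000 bp from the groups, 5.12% (4.74 to 5.52) were mCpGs, at 2000 to 5000 bp 8.03%, and at 5000 to 10000 bp 5.78%. Beside single mCpGs these were 1.96%, 3.31% and 3.05%, and beside isolated chains of 4 or more 9.92%, 9.09% and 6.15%. At least 1 mCpG lay at 1000 to 2000 bp from 102 of the 235 groups. This held for 461 of the 1731 single mCpGs and 224 of the 392 chains. In both measures the small groups lay between the other sets. The share near a chain was 50.0% (38.6 to 61.4) of groups with up to 20 CpG sites per 1000 bp, 71.4% (62.2 to 79.2) with 21 to 40, and 56.7% (44.1 to 68.4) with more, where covered CpGs away from mCpGs had 3.96%, 8.47% and 8.04%. Single mCpGs had 43.3% (35.4 to 51.5), 52.8% (48.8 to 56.8) and 20.8% (18.4 to 23.4) at these densities. The share of the groups was thus above that of CpGs away from mCpGs at each density, and its interval overlapped with that of single mCpGs at up to 20 sites.

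Groups near a longer chain and groups far from one differed moderately. The 144 near groups had 39.9% methylated reads (39.1 to 40.7) and a median of 34.9% (31.2 to 41.5). The 68 groups farther than 5000 bp had 33.3% and a median of 25.1% (18.5 to 30.7), and the 23 without a longer chain on the scaffold had 31.1% and a median of 22.0% (12.2 to 34.6). Their CpG density was similar, with medians of 28.5, 29 and 20 sites per 1000 bp and intervals that overlap. Groups with a pair that differed numbered 50 of 144, 11 of 68 and 5 of 23, beside 66 of all 235. Groups of 3, which have 2 pairs to test, numbered 42, 14 and 7 in these sets, so nothing is read from the counts. Reads per mCpG had medians of 38.7 (34.3 to 43.5), 27.8 (24.0 to 40.5) and 36.0 (26.3 to 47.5), with intervals that overlap.

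The groups lay on 101 scaffolds, 62 of which held 1 group each, and none lay on the mitochondrial scaffolds. SCAFFOLD1 held 13, SCAFFOLD2 held 12 and SCAFFOLD7 held 10. For the 173 groups that shared a scaffold with another, the median distance to it was 168523 bp. The closest lay 1548 bp apart, and 10 groups had another within 5000 bp. The rule allowed no other group within 1000 bp. Whether these distances differ from an even spread was not tested, and the counts per scaffold were not set against scaffold length. Scaffolds shorter than 100 kbp held 7.66% of the groups (4.90 to 11.8) and 7.04% of the covered CpGs.

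Read depth at the mCpGs was compared with that beside them. The mCpGs of a group had a median of 36 reads (32 to 40.5, range 15.5 to 219.5), against 25 for all covered CpGs with 15 or more reads, which the rule also demands. Divided by the mean depth of the covered CpGs within 1000 bp, the depth had a median ratio of 1.12 (1.06 to 1.21) over 234 groups. It was 0.827 for single mCpGs, 1.39 for isolated chains of 4 or more and 1.04 for CpGs of 15 or more reads away from mCpGs. All these sites needed 15 reads and the CpGs beside them 10, so the ratio depends on the 2 minimums. With a minimum of 20 reads for both, the ratio of the small groups was 0.996 (0.937 to 1.04), so that in this setting the depth was not above that of the flanks. With 30 or more reads at each mCpG and 10 beside them it was 1.71 (1.53 to 1.97). In the main setting the ratio was above 2 in 40 groups (17.1%, 12.8 to 22.4), against 9.98% of the CpGs of 15 or more reads away from mCpGs. These 40 had a median methylation of 34.8% (22.1 to 42.8) and the others 30.2% (25.7 to 33.3), and leaving them out left the pooled value at 37.6%. Reads from other copies of a sequence raise depth, and their part was not tested.

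The groups with most reads stood apart in depth in different ways. On SCAFFOLD209:202228-202252 the 2 mCpGs had 94 of 219 and 94 of 220 methylated reads (42.8%, 38.3 to 47.5), at 5.22 times the depth of their flanks, and this was the 1 group with a site above 170 reads, the depth passed by 1 in 1000 covered CpGs. On SCAFFOLD17:1477934-1478043 the counts were 27 of 126, 20 of 126 and 15 of 46. On SCAFFOLD236:19753-19816 they were 26 of 79, 30 of 90 and 38 of 116, nearly 33% at each site, within flanks of a mean of 166 reads. On SCAFFOLD4:259624-260055 they were 59 of 78, 14 of 113 and 16 of 81, and the first and the middle site differed by 63.3 percentage points (adjusted p = 7.27e-17, Fisher's exact test). The largest depth ratio, 5.68, was that of SCAFFOLD5117:205-290 with 51 of 105 and 32 of 93, and the smallest, 0.189, that of SCAFFOLD260:144028-144056 with 4 of 37 and 5 of 44, both named after their values were seen.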

How the data were processed

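Genomic DNA of 1 pool of 50 adult females (24 h) was sheared, size-selected at 130 to 180 bp, converted with bisulfite, amplified with 15 PCR cycles and sequenced in 2 lanes. The authors used the reads of the GAIIx lane and only the first read of each HiSeq2000 pair, trimmed them to 75 bp, aligned them with BWA (version not given in the sources used here) to converted reference scaffolds, and kept unique alignments. The submitters' processing notes also name CASAVA 1.7. The release of the scaffolds and any removal of duplicates are not given in the sources used here. The deposited table gives raw counts of C and T reads per CpG, with both strands and lanes summed by the authors. No column of per-sample values was left unused (0), and lanes could not be compared.

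Chains, groups and comparisons were computed with Python 3.11.15, NumPy 2.4.6, pandas 2.3.3 and SciPy 1.17.1, and plotted with matplotlib 3.10.9. Covered CpGs had at least 10 reads, the members' mCpGs at least 15. The methylation percentage is methylated reads over all reads, with a read counted at each CpG it covers. The scripts were tested on simulated data. The total was 226856322 counts, and a single mCpG of 29 reads, the median, has a wide interval, so single sites are given with their counts. Only neighbouring mCpGs were tested (two-sided Fisher's exact test, Benjamini-Hochberg adjustment at 0.05 over all neighbouring pairs of all chains). Alternatives were other minimums of reads, thresholds, distances and gaps, and the omission of extreme depth and of short scaffolds.

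The members and all lists were chosen with earlier results of these data known. Groups were named by rule: the 4 with the highest and the 4 with the lowest percentage among groups of 3, the 4 with most reads, the 4 with the widest span, the 4 with the largest difference past the test, and the 4 with most methylated reads at thinly read CpGs inside. Other groups named were chosen after their values were seen.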

Additional observations from a re-analysis of the deposited data

How the results depend on the processing

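Of 74 values under alternatives, 39 kept their size within their interval or, for counts, within 1.5 times, and 35 moved. Those that moved included the number of pairs that differed, the only tested result, whose share ran from 19.6% to 33.6%. With a coverage minimum of 20 reads the number of groups was 367, the methylation percentage 44.6%, the pairs that differed 168, the thinly read CpGs inside called 75.9% (of 54), the flanking methylation 0.535%, the depth ratio 0.996 and the share near a longer chain 69.2%. With 30 or more reads at each mCpG they were 107 groups, 35.4%, 36 pairs, 0 of 1 thinly read CpG and a ratio of 1.71. With no other mCpG within 500 bp they were 555 groups, 43.0%, 223 pairs, 0.603% and 80.2% near a chain. With 2000 bp they were 133 groups, 36.2%, 32 pairs, 0 of 2 thinly read CpGs, 0.358% and 35.3% near a chain, since the wider rule leaves out the nearest chains. With a threshold above 20% the methylation percentage was 51.8%, the flanking methylation 0.798%, the CpG density 23 and the share near a chain 70.9%. A gap of at most 200 bp gave 36.5%, and pairs more than 75 bp apart alone held 32 that differed. With every lower bound above 10%, chosen after seeing the data, there were 105 groups, 49.1%, 34 pairs, 0.507%, a density of 23 and 68.6% near a chain. Except where the alternative's construction shows it, the cause was not tested. No paired analysis was possible because both lanes are summed in the table, and no replicate could be left out.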
